A study of Mus musculus with 20 samples.

Results

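Spermatogonial differentiation was followed through 8 genes, Kit, Sohlh1, Sohlh2, Dmrt1, Neurog3, Sox3, Rarg and Stra8, in RNA sequencing of mouse male germ cells. The genes were chosen by name for their roles, and all 8 stood among the 23853 gene symbols common to the count tables of the 3 ages. Cells were sorted by flow for green fluorescence (GFP) from male mice of mixed strain background that were Tex15+/- (heterozygous) or Tex15-/- (knockout). The gene Tex15 acts in germ cells, and male mice without it are infertile. Each genotype had 3 libraries at embryonic day 16.5 (e16.5), 3 at embryonic day 18.5 (e18.5) and 4 at postnatal day 2 (d2), 20 libraries in all. Every group carried the GFP label and at least 1 altered Tex15 allele, so no wild-type level is among the data. The promoter that drives GFP and the deleted part of Tex15 are not given in the sources used here. Replicates number 4 per genotype at d2, although the series is described as triplicate, and no label says that replicates are separate animals. The p-values below therefore measure the spread between these samples, which may be technical.

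In the fetal testis male germ cells rest from division as prospermatogonia. Around birth they resume division and give rise to undifferentiated spermatogonia. Retinoic acid, read by receptors of the RAR family of which Rarg encodes RAR gamma, drives these cells into differentiation, where they turn on Stra8 and the receptor tyrosine kinase gene Kit and come to depend on KIT ligand from Sertoli cells. Sohlh1 and Sohlh2 encode germ cell basic helix-loop-helix (bHLH) factors required for that step and can bind DNA as partners. Dmrt1 encodes a DM domain factor that holds spermatogonia back from meiosis and restrains Stra8. Neurog3, a bHLH factor gene, and Sox3, an HMG-box factor gene, mark progenitor spermatogonia that are about to differentiate.

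Promoter windows from RefSeq (build GRCm38.p6), reaching from 250 bases before to 50 bases after the annotated start, were found for 6 of the 8 genes, with no entry for Dmrt1 and Sox3. The windows of Stra8, Sohlh2 and Sohlh1 are printed because Stra8 and Sohlh2 were the genes with large increases at d2 that had an entry, while Sohlh1, the partner of Sohlh2, had no such increase. Capitals mark matches, on either strand, to AGGTCA (the core read by nuclear receptors such as RARs), CACGTG (an E-box, the class of site read by bHLH factors) or ACAATG (a core read by HMG-box factors of the SOX family). Stra8 lies on the plus strand (chr6:34920698-34920997), Sohlh2 on the plus strand (chr3:55181794-55182093) and Sohlh1 on the minus strand (chr2:25847199-25847498).
Stra8: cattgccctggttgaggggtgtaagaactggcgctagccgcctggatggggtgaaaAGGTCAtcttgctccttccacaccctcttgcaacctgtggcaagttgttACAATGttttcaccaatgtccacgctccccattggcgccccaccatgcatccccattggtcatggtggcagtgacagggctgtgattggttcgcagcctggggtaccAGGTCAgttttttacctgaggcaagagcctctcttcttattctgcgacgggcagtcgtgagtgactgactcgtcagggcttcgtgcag
Sohlh2: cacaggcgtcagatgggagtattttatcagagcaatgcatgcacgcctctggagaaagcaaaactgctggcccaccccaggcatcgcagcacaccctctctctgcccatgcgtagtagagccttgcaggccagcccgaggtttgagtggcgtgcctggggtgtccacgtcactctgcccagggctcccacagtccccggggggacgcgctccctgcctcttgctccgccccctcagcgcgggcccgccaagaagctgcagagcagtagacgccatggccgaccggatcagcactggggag
Sohlh1: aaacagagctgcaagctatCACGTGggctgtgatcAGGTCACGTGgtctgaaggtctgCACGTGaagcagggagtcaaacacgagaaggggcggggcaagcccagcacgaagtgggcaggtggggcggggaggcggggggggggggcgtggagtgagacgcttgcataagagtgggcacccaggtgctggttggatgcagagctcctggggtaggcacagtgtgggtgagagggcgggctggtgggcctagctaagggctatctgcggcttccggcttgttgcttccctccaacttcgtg
The Stra8 window held AGGTCA at 194 and at 38 bases before the start and ACAATG at 145 bases before it. The Sohlh1 window held CACGTG at 231, 211 and 192 bases before the start, and an AGGTCA at 215 bases before it shares bases with the middle E-box. The Sohlh2, Kit and Neurog3 windows held none of these letters, and the Rarg window held AGGTCA once, on the opposite strand. Among the 27025 genes with a window of this length, 16.0% held AGGTCA and 1.74% held it at least 2 times, 7.2% held CACGTG and 0.089% held it at least 3 times, and 12.8% held ACAATG. A match describes the letters of a window and is not evidence of binding.

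Libraries held 14.3 to 31.5 M counts (M, mega) in total and 7.78 to 14.2 M in genes, and gene levels below are in CPM (counts-per-million gene counts after TMM scaling). Tex15 stood at 608 to 2123 CPM in Tex15+/- libraries and at 1.69 to 5.38 CPM in all Tex15-/- libraries except the library labelled Tex15-/- d2 replicate 2, at 100.8 CPM. The d2 knockout results of the 8 genes, and the counts called in the gene lists named below, are therefore also given without that library. The germ cell markers Ddx4, Dazl, Mael, Tdrd1 and Piwil2, checked against the label, summed to 3669 to 6676 CPM in every library. Markers of other cells were present at lower sums, with 50.2 to 125 CPM for 10 Sertoli cell genes, 134 to 329 CPM for 8 stroma genes, 12.8 to 110.9 CPM for 6 Leydig cell genes (the highest in Tex15+/- e16.5 replicate 2) and 1.10 to 13.8 CPM for 7 mast cell genes. In sorted bulk samples, fewer cells that express a gene and less RNA of it per cell cannot be told apart.

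The clearest change in these genes was with age, and it was present in both genotypes. From e18.5 to d2 Stra8, Sohlh2 and Dmrt1 rose and Rarg fell in Tex15+/- and in Tex15-/- cells, while Kit, Sohlh1, Neurog3 and Sox3 did not pass the test in either. Between the genotypes a single gene passed at a single age, Kit at e18.5, where it was 1.44-fold higher in Tex15-/- cells. Calls rest on edgeR's quasi-likelihood test with Benjamini-Hochberg adjustment over all genes tested, at an adjusted p of up to 0.05.

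**Figure D1:**
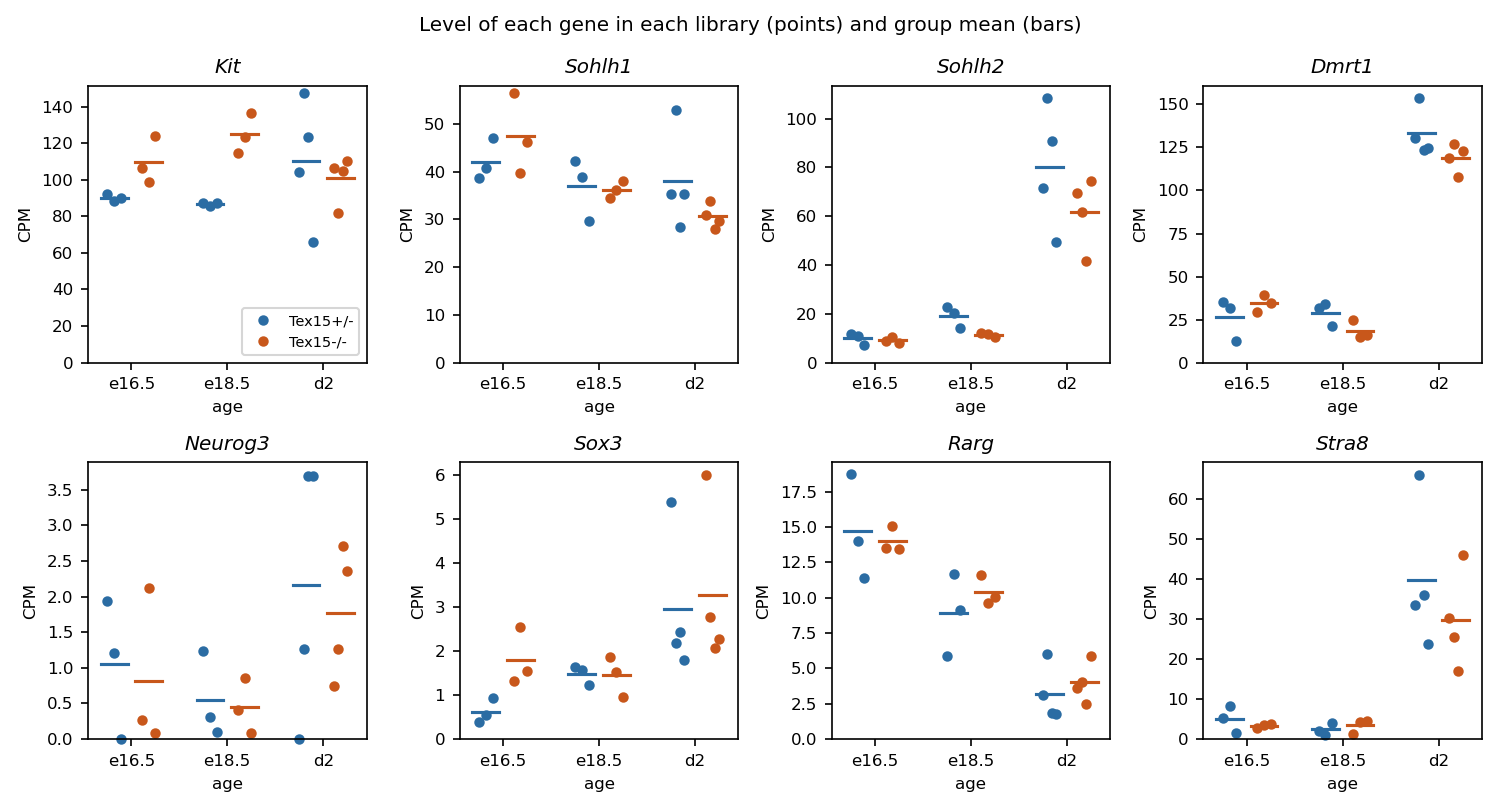
Level of each of the 8 genes in CPM (vertical axis, from 0, with its own range per panel) in every library (points) with the group mean (bars), by age and genotype. Stra8, Sohlh2 and Dmrt1 stand higher at d2 than at either embryonic age in all libraries of both genotypes, Rarg stands low at d2, and Kit at e18.5 lies at up to 87.3 CPM in Tex15+/- against at least 115 CPM in Tex15-/- libraries.

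Set against all genes, the counts of calls were as follows. For Tex15-/- against Tex15+/- cells, 0 of 8 genes were called at e16.5, where 0.0061% of the 16384 genes tested were called. At e18.5 1 of 7 was called (Neurog3 did not pass the filter on low counts), against 2.33% of 18075 genes in either direction and 2.06% called higher. At d2 0 of 8 were called, against 2.8% of 15343 genes. At e16.5, where 1 gene in all was called, 1266 genes and 1 of the 8 (Sox3) had an unadjusted p under 0.05, and DESeq2 called 22 genes, none of them among the 8. At e18.5 3 of the 7 tested (Kit, Sohlh2 and Dmrt1) had an unadjusted p under 0.05, as did 2045 of all 18075 genes. At d2 none of the 8 had one, against 2492 of all 15343 genes. Neither DESeq2 nor voom called any of the 8 at d2 or at e16.5. The median log2 difference of the genes tested was 0.02 (e16.5), -0.03 (e18.5) and -0.22 (d2), beside -0.01, -0.01 and -0.02 for all genes.

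Age comparisons came from 1 fit of all 20 libraries over 18619 genes. Age cannot be told apart from the table, sequencing run or litter it came with, and the comparisons of consecutive ages share the e18.5 libraries. From e16.5 to e18.5 1 of 8 genes rose in Tex15+/- cells, where 17.8% of all genes were called and 7.63% rose, and 1 of 8 fell in Tex15-/- cells, where 35.1% were called and 17.7% fell. From e18.5 to d2 4 of 8 were called in Tex15+/- cells, 3 higher and 1 lower, against 51.2% of all genes called, 24.1% higher and 27% lower. The same step in Tex15-/- cells also gave 4 of 8, 3 higher and 1 lower, against 55% called, 25.3% higher and 29.7% lower. The share of the 8 genes called at this step thus lay near that of all genes. Their median log2 change was 1.44 in Tex15+/- and 1.57 in Tex15-/- cells, beside -0.08 and -0.11 for all genes.

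Kit, the receptor for KIT ligand, had the smallest span of group means of the 8 genes on the log2 scale, at 0.52. In Tex15+/- cells it stood at 92.0, 88.5 and 89.8 CPM at e16.5, at 87.3, 85.8 and 87.1 CPM at e18.5, and at 104.4, 147, 123 and 65.9 CPM at d2. In Tex15-/- cells it stood at 106, 98.8 and 124 CPM at e16.5, at 115, 123 and 137 CPM at e18.5, and at 107, 81.9, 105 and 110.2 CPM at d2. All 3 knockout libraries lay above all 3 heterozygous libraries at both embryonic ages, whereas at d2 the knockout range lay inside the heterozygous range. At e18.5 the log2 difference was 0.53 (SE 0.13, 95% interval 0.25 to 0.81, edgeR adjusted p = 0.0389). At e16.5 it was 0.25 (interval -0.05 to 0.55, edgeR adjusted p = 0.664), and at d2 it was -0.12 (interval -0.51 to 0.27, edgeR adjusted p = 0.803).

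The e18.5 call of Kit was sensitive to which libraries were in the fit. It held in 1 of the 6 fits that left out a library, that without Tex15+/- replicate 3, and ended in the others (adjusted p of 0.056 without knockout replicate 1 to 0.184 without knockout replicate 3), as it did with all ages in 1 fit (edgeR adjusted p = 0.309). The log2 difference stayed between 0.46 and 0.59 in all 14 alternatives. Mast cells also carry KIT, and the summed level of their 7 markers at e18.5 was 5.64 to 10.8 CPM in Tex15+/- and 8.07 to 13.8 CPM in Tex15-/- libraries, with none of the 3 markers tested called. The summed level of 7 macrophage and white blood cell markers differed more, at 30.3 to 42.9 CPM against 89.1 to 108.7 CPM. Of these, Mrc1 (log2 difference 1.74) and Adgre1 (1.81) were called higher in Tex15-/- cells. Most of the difference in the sum came from Mrc1, with a mean of 21.8 CPM in Tex15+/- and 72.6 CPM in Tex15-/- cells. The means of Ptprc and Cd68 were also higher in Tex15-/- cells, and those of Csf1r, Cx3cr1 and Lyz2 were lower. The part of either cell type in the Kit difference was not tested. Ordered by mean, the level of Kit was highest in Tex15-/- cells at e18.5, followed by Tex15+/- d2, Tex15-/- e16.5, Tex15-/- d2, Tex15+/- e16.5 and Tex15+/- e18.5, and the ranges of neighbours overlapped except between the last pair.

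Sohlh1, the first of the bHLH partners, passed none of these tests with edgeR. Its level in Tex15+/- libraries was 38.7, 40.7 and 46.9 CPM at e16.5, 42.2, 39.0 and 29.5 CPM at e18.5, and 35.2, 52.9, 28.3 and 35.4 CPM at d2. In Tex15-/- libraries it was 56.5, 39.8 and 46.3 CPM at e16.5, 34.5, 36.1 and 38.0 CPM at e18.5, and 30.9, 33.9, 28.1 and 29.7 CPM at d2. The genotypes overlapped at each age, and the log2 differences of 0.14, -0.03 and -0.31 had edgeR adjusted p of 0.840, 0.9748 and 0.496. Its d2 interval, -0.73 to 0.12, does not show that the genotypes were alike. Voom alone called it lower from e16.5 to e18.5 in Tex15-/- cells, where edgeR gave a log2 change of -0.38 (edgeR adjusted p = 0.1503). Along the order of group means, from Tex15-/- e16.5 down to Tex15-/- d2, neighbouring ranges overlapped except between Tex15-/- e18.5 and Tex15-/- d2, which were called neither higher nor lower (log2 change -0.24, edgeR adjusted p = 0.298).

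Sohlh2, the partner of Sohlh1, rose with age from a low fetal level. It was counted at 11.5, 10.8 and 7.38 CPM in Tex15+/- cells at e16.5, at 22.9, 20.3 and 14.2 CPM at e18.5, and at 71.5, 108, 90.7 and 49.4 CPM at d2. The Tex15-/- libraries held 8.64, 10.5 and 8.06 CPM at e16.5, 12.2, 11.6 and 10.4 CPM at e18.5, and 69.4, 61.9, 41.5 and 74.4 CPM at d2. Every d2 library stood above every fetal one, and at e18.5 each heterozygous library stood above each knockout library. From e18.5 to d2 Sohlh2 rose 4.16-fold in Tex15+/- cells (log2 2.06, SE 0.25, edgeR adjusted p = 1.91e-07) and 5.41-fold in Tex15-/- cells (log2 2.44, SE 0.26, edgeR adjusted p = 1.53e-08). From e16.5 to e18.5 it rose 1.93-fold in Tex15+/- cells (log2 0.95, SE 0.26, edgeR adjusted p = 0.0125). That call ended without Tex15+/- e16.5 replicate 3 (adjusted p = 0.0524) and without Tex15+/- e18.5 replicate 1 (adjusted p = 0.0679). In Tex15-/- cells the same step gave a log2 change of 0.35 (interval -0.19 to 0.89, edgeR adjusted p = 0.314). The test of the difference between these changes gave -0.60 on the log2 scale and did not pass (edgeR adjusted p = 0.850). The fetal increase is therefore not shown to differ by genotype.

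Between genotypes at e18.5 the log2 difference of Sohlh2 was -0.75 (interval -1.26 to -0.23), with an unadjusted p of 0.00664 that did not pass after adjustment over all genes (edgeR adjusted p = 0.157). Without Tex15+/- replicate 3 it passed at an adjusted p of 0.0499. At e16.5 and d2 the differences were -0.16 (edgeR adjusted p = 0.878) and -0.37 (edgeR adjusted p = 0.427). Group ranges of Sohlh2 separated into 3 steps, with d2 of both genotypes highest, Tex15+/- e18.5 next and the other 3 fetal groups lowest and overlapping.

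Dmrt1, the factor that restrains meiotic entry, also rose at d2. Its level was 35.5, 31.5 and 12.8 CPM in Tex15+/- cells at e16.5, 31.7, 33.8 and 21.0 CPM at e18.5, and 130.4, 154, 124 and 125 CPM at d2. In Tex15-/- cells it was 29.3, 39.5 and 34.6 CPM at e16.5, 24.5, 15.04 and 16.2 CPM at e18.5, and 119, 127, 108 and 123 CPM at d2. The d2 libraries of both genotypes overlapped each other and stood well above all fetal libraries. The change from e18.5 to d2 was 4.60-fold in Tex15+/- cells (log2 2.20, SE 0.24, edgeR adjusted p = 7.13e-08) and 6.38-fold in Tex15-/- cells (log2 2.67, SE 0.25, edgeR adjusted p = 3.79e-09). Dmrt1 is also expressed by Sertoli cells, and their 10 markers summed to 65.1 to 79.1 CPM at e18.5 and 86.0 to 125 CPM at d2, with the part of this in the Dmrt1 change not tested.

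Before birth Dmrt1 fell 1.83-fold from e16.5 to e18.5 in Tex15-/- cells (log2 -0.87, SE 0.25, edgeR adjusted p = 0.00915), and all 3 libraries at e18.5 lay below the 3 at e16.5. In Tex15+/- cells the ranges overlapped and the log2 change was 0.12 (interval -0.39 to 0.64, edgeR adjusted p = 0.773). The test of the difference between these changes gave -0.995 on the log2 scale with an unadjusted p of 0.00929 and did not pass (edgeR adjusted p = 0.548), so the decrease is not shown to differ by genotype. Within an age the log2 difference between genotypes was 0.34 at e16.5 (edgeR adjusted p = 0.768), -0.63 at e18.5 (interval -1.13 to -0.14, edgeR adjusted p = 0.246) and -0.16 at d2 (edgeR adjusted p = 0.584).

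Neurog3, the progenitor bHLH gene, was barely detected. It had 0 counts in Tex15+/- e16.5 replicate 3 and in Tex15+/- d2 replicate 1, where 3 counts would be 0.307 and 0.304 CPM. Elsewhere it reached at most 2.12 CPM before birth and 3.70 CPM at d2. At d2 the Tex15+/- libraries read 0, 1.27, 3.70 and 3.69 CPM and the Tex15-/- libraries 0.750, 1.26, 2.72 and 2.36 CPM, so libraries of 1 group spread more widely than the groups. No comparison passed, and the intervals were wide, from -2.78 to 1.98 at e16.5 and from -1.95 to 1.40 at d2 for the log2 difference between genotypes. The GENCODE M21 exons of Neurog3 share 273 bases (17.7% of its exon length) with Fam241b on the opposite strand. Whether counting used strand is not given in the sources used here.

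Sox3, the HMG-box progenitor gene, was also low. It read 0.388, 0.547 and 0.922 CPM in Tex15+/- and 1.31, 2.56 and 1.55 CPM in Tex15-/- libraries at e16.5, where the knockout libraries lay above the heterozygous ones. These values rest on 4 to 9 and 15 to 29 counts per library. The log2 difference was 1.49 (SE 0.60, interval 0.18 to 2.80, unadjusted p = 0.0289) and did not pass after adjustment (edgeR adjusted p = 0.636). At e18.5 and d2 the genotypes overlapped, at 0.958 to 1.86 CPM and 1.79 to 6.003 CPM over both. The log2 change from e18.5 to d2 was 0.98 in Tex15+/- (edgeR adjusted p = 0.142) and 1.17 in Tex15-/- cells (edgeR adjusted p = 0.0771).

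Rarg, the receptor gene of the retinoic acid pathway, ran opposite to the other called genes. Tex15+/- libraries held 18.7, 14.004 and 11.4 CPM at e16.5, 5.88, 11.7 and 9.16 CPM at e18.5, and 3.14, 5.98, 1.85 and 1.79 CPM at d2. Tex15-/- libraries held 13.5, 15.1 and 13.4 CPM at e16.5, 11.6, 9.61 and 10.01 CPM at e18.5, and 3.64, 4.04, 2.46 and 5.90 CPM at d2. Knockout ranges stepped down at each age without overlap, and in Tex15+/- cells 1 d2 library (5.98 CPM) reached the lowest e18.5 library (5.88 CPM). The step from e16.5 to e18.5 did not pass in either genotype. Its log2 change was -0.72 in Tex15+/- (edgeR adjusted p = 0.186) and -0.41 in Tex15-/- cells (interval -1.18 to 0.35, edgeR adjusted p = 0.408). From e18.5 to d2 Rarg fell 2.73-fold in Tex15+/- cells (log2 -1.45, SE 0.36, edgeR adjusted p = 0.00164) and 2.57-fold in Tex15-/- cells (log2 -1.36, SE 0.36, edgeR adjusted p = 0.00233). The genotypes overlapped at each age, with log2 differences of -0.10, 0.23 and 0.32 and edgeR adjusted p of 0.915, 0.856 and 0.801. The 8 stroma markers summed to 257 to 329 CPM at e18.5 and 150.03 to 237 CPM at d2 in Tex15+/- libraries, without overlap, and to 258 to 287 and 208 to 325 CPM in Tex15-/- libraries, which overlapped. Of these markers 1 was called higher at d2 (Dcn) and 2 lower (Postn and Lum) in Tex15+/- cells, and 2 higher and 2 lower in Tex15-/- cells. Their part in the Rarg change was not tested.

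Stra8, the retinoic acid target needed for meiotic initiation, showed the largest change of the 8 genes. It was low before birth, at 5.33, 8.21 and 1.64 CPM in Tex15+/- and 2.88, 3.61 and 3.67 CPM in Tex15-/- libraries at e16.5. At e18.5 it read 2.12, 1.02 and 4.06 CPM in Tex15+/- and 1.29, 4.38 and 4.53 CPM in Tex15-/- libraries, which are 13 to 52 counts. At d2 it reached 33.5, 65.8, 36.1 and 23.7 CPM in Tex15+/- and 30.1, 25.5, 17.1 and 45.8 CPM in Tex15-/- libraries. The lowest d2 library was thus above the highest fetal library, and within each age the genotypes overlapped. From e18.5 to d2 Stra8 rose 16.8-fold in Tex15+/- cells (log2 4.07, SE 0.55, edgeR adjusted p = 2.96e-06) and 8.76-fold in Tex15-/- cells (log2 3.13, SE 0.52, edgeR adjusted p = 3.23e-05). The knockout against heterozygous log2 differences were -0.61 (e16.5), 0.51 (e18.5) and -0.42 (d2), with edgeR adjusted p of 0.746, 0.823 and 0.536. The d2 interval ran from -1.05 to 0.21.

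**Figure D2:**
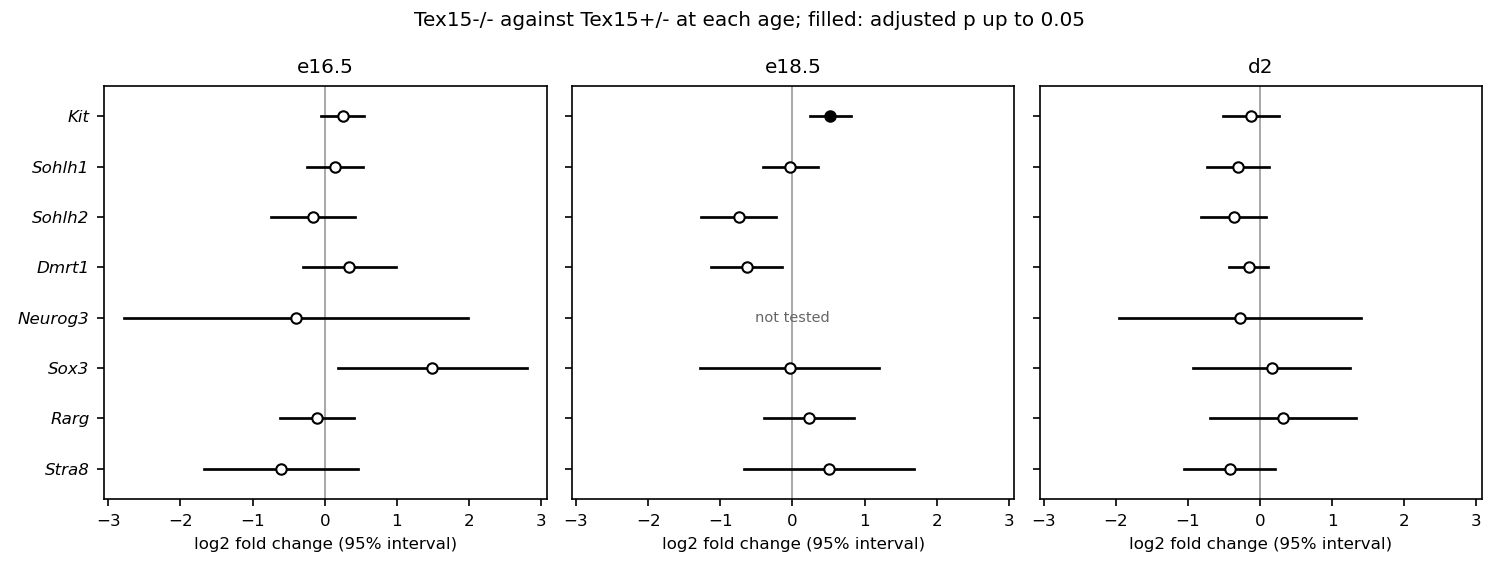
Log2 fold change of Tex15-/- against Tex15+/- cells (horizontal axis, same scale in the 3 panels) for each gene at each age, with its 95% interval as a line; filled points have an edgeR adjusted p of up to 0.05. Kit at e18.5 (0.53) is the filled point, Sohlh2 and Dmrt1 at e18.5 and Sox3 at e16.5 have intervals that leave out 0 without passing the adjustment, and Neurog3 was not tested at e18.5.

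**Figure D3:**
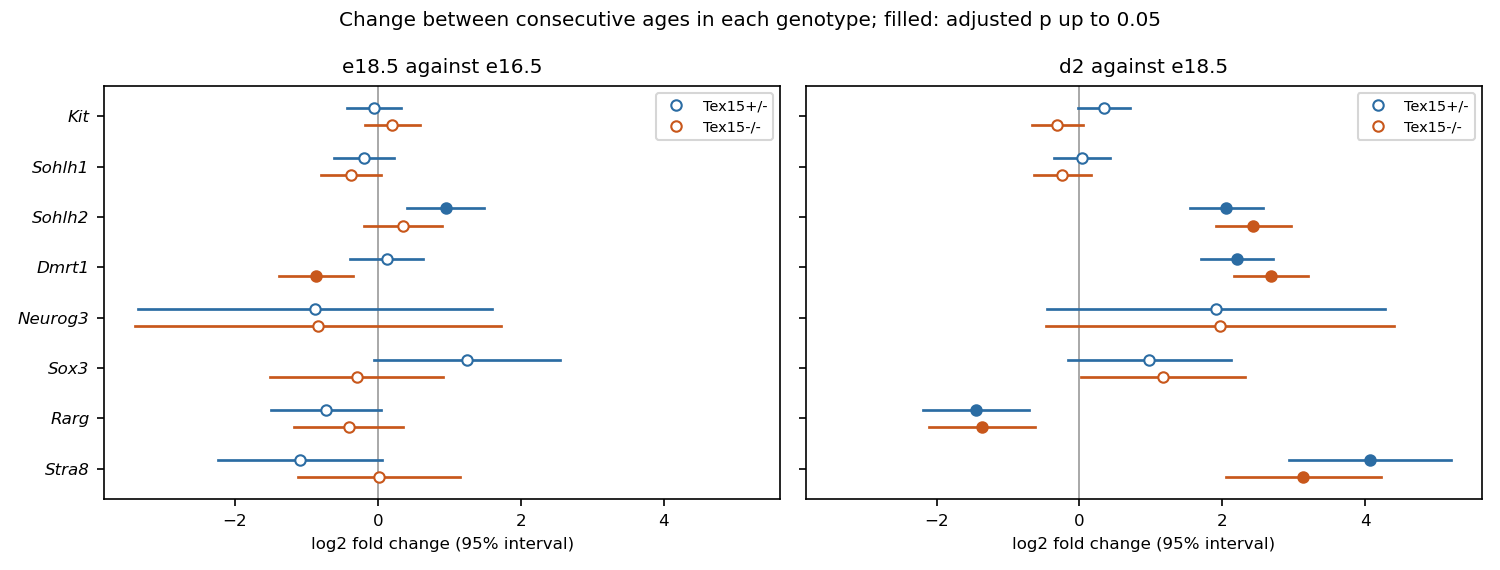
Log2 fold change between consecutive ages (horizontal axis) in Tex15+/- and Tex15-/- cells, with 95% intervals as lines and filled points for an edgeR adjusted p of up to 0.05. At d2 against e18.5 Sohlh2, Dmrt1, Stra8 and Rarg are filled in both genotypes, with Stra8 farthest from 0 at 4.07 and 3.13.

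The d2 results of Tex15-/- cells were close to these without replicate 2, the library with Tex15 counts. The e18.5 to d2 changes were then 2.43 for Sohlh2, 3.20 for Stra8, 2.64 for Dmrt1 and -1.36 for Rarg on the log2 scale, with the same 4 genes called, and 0 of 8 were called between genotypes at d2, with log2 differences from -0.37 (Sohlh2) to 0.32 (Rarg). Within the Tex15+/- d2 group, replicate 2 held the highest level of 6 of the 8 genes, all but Neurog3 and Sox3, and replicate 4 held the lowest level of 5.

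Whether the knockout effect itself changed with age was tested in the same fit. From e16.5 to e18.5 edgeR called 0 of 8 genes, against 0.0967% of all genes, and from e18.5 to d2 0 of 8, against 0.526%. DESeq2 and voom also called 0 of the 8 in each. An unadjusted p under 0.05 was reached by 1 of the 8 in each, Dmrt1 in the former and Kit in the latter. Of all 18619 genes, 1190 and 2508 reached it. For Kit the difference between the knockout effects at d2 and e18.5 was -0.65 on the log2 scale and did not pass (interval -1.16 to -0.15, unadjusted p = 0.0133, edgeR adjusted p = 0.232). Without Tex15-/- d2 replicate 2 it was -0.57 (adjusted p = 0.266). It passed without Tex15+/- d2 replicate 4, the library with the lowest Kit level (adjusted p = 0.0492).

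Levels of different genes were compared per kb of exon (union of GENCODE M21 exons), which the tables' own gene models may not match. Before birth Sohlh1 had the highest level per kb of the 8 genes in each group, from 28.1 CPM per kb in Tex15-/- e18.5 to 36.9 CPM per kb in Tex15-/- e16.5, followed by Kit at 16.5 to 23.8 CPM per kb. At d2 Dmrt1 stood first at 56.9 ± 5.97 CPM per kb in Tex15+/- and 50.9 ± 3.52 CPM per kb in Tex15-/- cells (SD, n = 4). Sohlh2 came next, at 33.8 ± 10.7 and 26.1 ± 6.12 CPM per kb (SD, n = 4), which did not differ from Sohlh1 at 29.4 ± 8.13 and 23.8 ± 1.92 CPM per kb (SD, n = 4) beyond their spread. Without Tex15-/- d2 replicate 2 these 3 genes kept their order in Tex15-/- cells, at 49.7, 26.1 and 22.9 CPM per kb. Neurog3 and Sox3 reached at most 1.41 and 1.59 CPM per kb in any group. The pair of bHLH partners thus went from a Sohlh1 level above that of Sohlh2 in every fetal group to levels within their spread at d2.

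**Figure D4:**
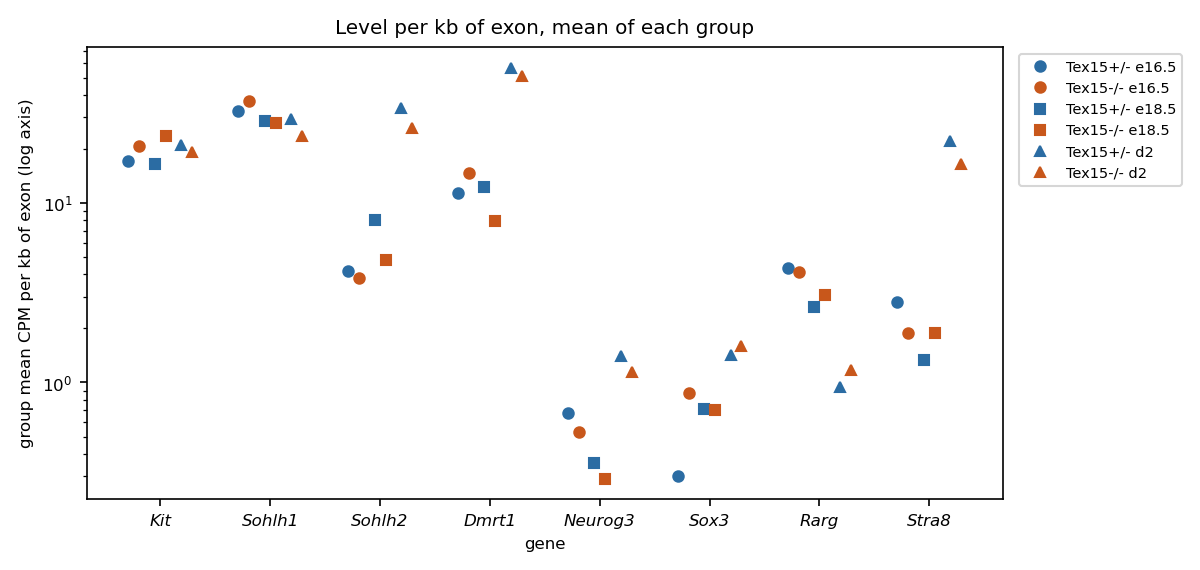
Group mean level in CPM per kb of exon (vertical log axis) of the 8 genes, with blue for Tex15+/- and orange for Tex15-/-, circles for e16.5, squares for e18.5 and triangles for d2. Sohlh1 leads before birth and Dmrt1 at d2, where Dmrt1 reaches 56.9 and 50.9 CPM per kb.

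Genes around the 8 were taken from named lists. Of 19 genes for retinoic acid supply, breakdown and receptors, edgeR called 0 between genotypes at each age (16, 18 and 17 tested), as did DESeq2 and voom, and 3, 0 and 3 had an unadjusted p under 0.05. Over all genes, 1266 of 16384, 2045 of 18075 and 2492 of 15343 had such a p at e16.5, e18.5 and d2. These counts are the background for each list below as well. The median log2 difference of the retinoic acid list was -0.21, -0.09 and -0.31 at e16.5, e18.5 and d2, beside -0.01, -0.01 and -0.02 for all genes. The lowest p at d2 belonged to the retinoid X receptor genes Rxra, at 84.4 ± 22.9 against 57.2 ± 5.31 CPM, and Rxrb, at 7.50 ± 3.35 against 3.14 ± 0.476 CPM (Tex15+/- against Tex15-/-, SD, n = 4; edgeR adjusted p = 0.0980 and 0.114). At e16.5 they were Cyp26b1, which encodes an enzyme that breaks down retinoic acid and stood at 5.28 against 3.01 CPM, and the receptor gene Rara at 41.8 against 58.5 CPM (edgeR adjusted p = 0.641 for both). Aldh1a3, for a retinoic acid producing enzyme, and Rxrg had the lowest p at e18.5, with log2 differences of -0.60 and -0.62 (edgeR adjusted p = 0.675 and 0.686). From e18.5 to d2, 5 of the 19 rose and 3 fell in Tex15+/- cells, and 2 rose and 3 fell in Tex15-/- cells (3 and 5 without Tex15-/- d2 replicate 2). Over all genes 24.1% rose and 27% fell in Tex15+/- cells, and 25.3% rose and 29.7% fell in Tex15-/- cells.

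For KIT ligand and signalling, 0 of 18 genes were called between genotypes at each age by edgeR, DESeq2 or voom, and 2, 2 and 1 had an unadjusted p under 0.05. Kitl, the ligand, stood at 4.96 ± 0.418 CPM in Tex15+/- and 2.43 ± 1.15 CPM in Tex15-/- libraries at e16.5 (SD, n = 3; edgeR adjusted p = 0.629), and Cbl, which marks active KIT for breakdown, at 170.2 and 216 CPM (edgeR adjusted p = 0.641). Stat3 and Pik3r1, a transcription factor and a kinase subunit downstream of the receptor, had the lowest p at e18.5, with log2 differences of 0.35 and -0.46 (edgeR adjusted p = 0.253 and 0.266), and at d2, with -0.31 and -0.37 (edgeR adjusted p = 0.259 and 0.313). The list medians were 0.07, -0.02 and -0.02. Without Tex15-/- d2 replicate 2, edgeR also called 0 of 18 at d2 in this list, 0 of 18 in the retinoic acid list and 0 of 16 in that of undifferentiated spermatogonia.

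Among 22 partners and relatives of the transcription factors, edgeR called 0 of 16 tested at e16.5, 0 of 17 at e18.5 and 1 of 18 at d2, and 2, 0 and 2 had an unadjusted p under 0.05. DESeq2 made the same counts and voom called 0 at each age. Of all genes tested at d2, 2.8% were called, and the 1 of 18 is not read as a result about the list. Nobox, an oocyte homeobox gene, was 4.61-fold lower in Tex15-/- cells at d2, going from 3.48 ± 1.24 to 0.737 ± 0.245 CPM (SD, n = 4; log2 -2.20, edgeR adjusted p = 0.0483). That call ended in 11 of 16 alternatives, among them without Tex15-/- replicate 2 (adjusted p = 0.0600), where Sox1 was the 1 gene called, of 19 tested, and with the replicate block (adjusted p = 0.128). Tcf3, an E protein that pairs with bHLH factors, and Lhx8, an oocyte LIM homeobox gene, had the lowest p at e16.5 (log2 differences 0.41 and -0.87, edgeR adjusted p = 0.629 for both). At e18.5 these were Id4, an inhibitor of bHLH factors, and the E protein gene Tcf12 (log2 differences -0.85 and -0.24, edgeR adjusted p = 0.537 and 0.589). The list medians were -0.11, -0.24 and -0.02 at e16.5, e18.5 and d2.

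Of 14 other genes that rise in differentiating spermatogonia or at meiotic entry, 13, 13 and 12 were tested at the 3 ages, and edgeR called 0, 0 and 2, both of them higher in Tex15-/- cells at d2, with 0, 3 and 4 at an unadjusted p under 0.05. Of all genes tested, 2.8% were called at d2 and 2.03% were higher. Both called genes encode parts of the synaptonemal complex, which joins paired meiotic chromosomes. Sycp1 rose 2.05-fold, from 220.4 ± 31.2 to 453 ± 129.6 CPM (log2 1.04, SE 0.17, edgeR adjusted p = 0.00222), and Sycp3 1.55-fold, from 139.8 ± 5.96 to 217 ± 28.1 CPM (log2 0.63, SE 0.12, edgeR adjusted p = 0.00569; SD, n = 4). Both calls held in all 16 alternatives. DESeq2 and voom called both and also Ccnd2, a cyclin gene, as did edgeR without Tex15-/- d2 replicate 2 (3 of 12 higher). In the same comparison the germ cell marker Dazl was higher, at 1401 to 1729 CPM in Tex15+/- and 1610 to 3045 CPM in Tex15-/- libraries (log2 0.61, edgeR adjusted p = 0.0349). The Sertoli cell marker Sox9 was lower, at 15.3 to 27.4 against 6.31 to 14.7 CPM (log2 -1.25, edgeR adjusted p = 0.0189). The other 4 germ cell markers and the other 7 Sertoli cell markers tested were not called, and the lists summed to 3669 to 4115 against 3930 to 5217 CPM and to 102 to 121 against 86.0 to 125 CPM. Their part in the Sycp1 and Sycp3 differences was not tested. Stra8, at a log2 difference of -0.42, did not pass at that age. At e18.5 the lowest p were those of Spo11, the meiotic nuclease gene, and Sycp3, with log2 differences of -0.53 and -0.43 (edgeR adjusted p = 0.240 and 0.253). At e16.5 they were those of Upp1 and Rec8, a uridine phosphorylase and a meiotic cohesin gene, with 0.86 and -0.33 (edgeR adjusted p = 0.666 and 0.675). The list medians were -0.04, -0.32 and 0.01.

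Genes of undifferentiated spermatogonia rose at the same step as Stra8, Sohlh2 and Dmrt1. Of 16, 11 rose and none fell from e18.5 to d2 in Tex15+/- cells, and 12 rose and none fell in Tex15-/- cells, with median log2 changes of 2.58 and 2.25. Over all genes 24.1% and 25.3% rose at this step, 51.2% and 55% were called, and the medians were -0.08 and -0.11. Without Tex15-/- d2 replicate 2 the Tex15-/- count was also 12 higher and 0 lower, with a median of 2.30. Gfra1, the receptor gene for GDNF, went from 10.5 ± 0.744 to 247 ± 36.8 CPM in Tex15+/- cells and from 8.19 ± 2.90 to 259 ± 25.9 CPM in Tex15-/- cells (SD, n = 3 and n = 4). Zbtb16, encoding the stem cell factor PLZF, went from 20.9 ± 2.32 to 144 ± 20.6 CPM and from 21.1 ± 4.48 to 125 ± 23.7 CPM. Between genotypes edgeR, DESeq2 and voom called 0 of the genes tested at each age (15, 15 and 16), and 2, 1 and 1 had an unadjusted p under 0.05. The lowest p were those of Nanos2 (log2 difference 0.72) and T (-0.65) at e16.5, Sall4 (-0.31) and Cdh1 (-0.43) at e18.5, and Sall4 (0.32) and Zbtb16 (-0.20) at d2, with edgeR adjusted p from 0.199 to 0.641. Gfra1 and the age values of Zbtb16 were chosen after their values were seen.

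Patterns over the 20 libraries were compared by the root mean square distance of log2 CPM, each gene centred on its own mean, for the members whose group means spanned at least 1 log2 unit. Kit and Sohlh1 spanned 0.52 and 0.62 and were left out. Closest to Sohlh2 was Zfp36l2 (0.25), then Notch1 and Abr (0.37 each), beside a median distance of 1.37 over 13309 genes. Closest to Dmrt1 was Armc10 (0.22), beside a median of 1.24. The nearest genes to Stra8 were Dlx3 (0.52), Chaf1b (0.55) and Uhrf1 (0.58), beside 1.79, and those to Rarg were Usp28 (0.40), Ppp2r1a (0.40) and Pou6f1 (0.42), beside 1.13. Sox3 lay nearest to Ube2e1 (0.50), Tmem161a (0.50) and Cilp2 (0.52), beside 0.93. Neurog3 had no near neighbour, with Mitd1 at 1.05, Zfp697 and Arl15 at 1.08 and a median of 1.49. All 20 libraries enter each distance, so the shared step between fetal and d2 libraries weighs on each of them.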

How the data were processed

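The authors deposited 1 table of read counts per age, with gene symbols and repeat names as features and 1 column per library. The values are whole, unscaled counts. Per the submitters' processing notes STAR, featureCounts, edgeR and Bowtie were used with build mm9, with no versions, roles or settings. Handling of multi-mapped reads and of strand is not given in the sources used here. Libraries were made from total RNA with NuGEN Ovation amplification kits, per the labels' protocols. Deposited tables of repeat families were not used here, and repeat names, at 43.2% to 65.0% of each library's counts, stayed out of gene totals.

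Gene counts were fitted in R 4.3.3 with edgeR 4.0.16: low genes were removed by filterByExpr (minimum count 10, total 15), libraries were scaled by TMM, and F tests of a robust quasi-likelihood fit were adjusted by Benjamini-Hochberg. Each age was fitted alone on genotype. Age changes and differences between knockout effects came from 1 fit of 20 libraries over the common symbols. SEs and 95% intervals are approximate, from the log2 fold change over the root of F. CPM values share 1 TMM scaling over all libraries. The 8 genes, the lists and the naming rule (all 8 genes; from each list up to 3 called genes by p per knockout comparison, or 2 as values; the 3 nearest patterns) were chosen with earlier results of these data known. Alternatives were DESeq2 1.42.0, median-ratio factors, total gene counts, no filter, a filter at 1 CPM, limma 3.58.1 voom with quality weights, a replicate block, other sets of ages in the fit and leaving out each library. Deviations of same-numbered libraries correlated at 0.21, 0.12 and 0.16 at e18.5, at -0.41, 0.15 and 0.15 at e16.5, and at 0.05, -0.29, 0.16 and -0.19 at d2. Differently numbered libraries reached 0.56 at e16.5 (heterozygous replicate 1 with knockout replicate 2). Such values cannot show that the numbers pair libraries, and the labels give no pairing. The replicate block is therefore given as an alternative only. Between replicates counts differed beyond sampling noise (chi-square per degree of freedom of at least 9.97). On simulated counts with 200 changed genes, the test recovered 53.1% of 2-fold and 82.6% of 4-fold changes at e16.5 (16031 genes), 37.9% and 93.2% at e18.5 (17713 genes) and 35.8% and 84.5% at d2 (15049 genes). Of 1.5-fold changes, the size of the Kit difference, it recovered 8.70% at e18.5. For heterozygous d2 against e18.5 the test recovered 45.8% of 2-fold and 89.4% of 4-fold changes (18098 genes). The adjustment depends on how many genes change, and the simulated sets gave 94 to 104 calls. The data gave 1 (e16.5), 422 (e18.5), 430 (d2) and 9524 (heterozygous d2 against e18.5). The simulated shares are therefore not the recovery in the data. Promoter windows are RefSeq's, and exon lengths are from GENCODE M21 (GRCm38), not from the build of the counts. Limits from 0 counts cover counting error only. Of the 3 nearest patterns to Dmrt1, 1 is named and the others are not reported here.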

Additional observations from a re-analysis of the deposited data

Results flagged for a closer look

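The library labelled Tex15-/- d2 replicate 2 had 100.8 CPM of Tex15, against 2.04 to 2.61 CPM in the other 3 libraries of its group and 608 to 1016 CPM in Tex15+/- d2 libraries. Its gap to the nearest library was 0.994 of the group's range, above Dixon's 95% critical value for 4 libraries. Tex15 and the 8 genes were screened in this way in both d2 groups, 18 sets of 4 libraries in all. This was the 1 set of the 18 that passed, and chance alone flags about 1 in every 20 sets screened. The cause was not tested.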

How the results depend on the processing

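At d2 against e18.5, the calls of Sohlh2, Stra8, Dmrt1 and Rarg held in both genotypes in all 15 alternatives. Dmrt1 from e16.5 to e18.5 in knockout cells held in all 14. The number of the 8 genes called between genotypes at e18.5 ran from 0 to 2 when single libraries were left out and was 0 with all ages in 1 fit. For heterozygous cells from e16.5 to e18.5 voom called 3 (Sohlh2, Stra8 and Rarg) and leaving out single libraries gave 0 to 1. For knockout cells at that step voom called 2 (Sohlh1 and Dmrt1). For the knockout effect at d2 against e18.5 leaving out single libraries gave 0 to 1. With the replicate block Kit at e18.5 had an edgeR adjusted p of 0.0156, and the block changed no call of the 8 genes. Pairing by replicate number is not established, so that fit is not read as support for the Kit call.

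Uncalled log2 differences between genotypes that changed sign when 1 library was left out had these ranges: at e16.5 Sohlh1 -0.00296 to 0.255, Rarg -0.249 to 0.10 and Neurog3 -2.57 to 0.41, at e18.5 Sohlh1 -0.162 to 0.0752, Sox3 -0.256 to 0.19 and Rarg -0.00318 to 0.477, and at d2 Kit -0.296 to 0.0450, Neurog3 -0.690 to 0.13 and Sox3 -0.30 to 0.625. Neurog3 at d2 also turned with voom (1.21) and the replicate block (0.19). The cause was not tested.

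Counts over all genes moved by over 1.5 times as follows. At e16.5 the 1 call became 22 with DESeq2, 2 without a filter, 25 without heterozygous replicate 1 and 0 with all ages in 1 fit. At e18.5 the 422 became 152 with all ages in 1 fit, 281 or 274 when replicate 2 of the heterozygous or of the knockout group was left out. At d2 the 430 became 820 with DESeq2, 770 with all ages in 1 fit, 235 with the replicate block, and 219, 187, 209 and 235 without heterozygous replicate 1 and knockout replicates 1, 3 and 4. The 3313 from e16.5 to e18.5 in heterozygous cells became 6960 with voom and 1740 without e16.5 replicate 1 or 2. The 18 called for the knockout effect at e18.5 against e16.5 ran from 3 to 173, and the 98 at d2 against e18.5 from 31 to 400. With total gene counts the median of all genes moved by over 0.1 at e18.5 against e16.5, to 0.17 in heterozygous and 0.32 in knockout cells, and the split of higher and lower calls went from 1420 and 1893 to 1792 and 1236, and from 3257 and 3287 to 4342 and 1975. At d2 between genotypes it went from 311 and 119 to 191 and 184. DESeq2 scaling moved that median to -0.22 and -0.29 at d2 against e18.5 in heterozygous and knockout cells, and to 0.21 from e16.5 to e18.5 in knockout cells, and Sohlh2, Stra8, Dmrt1 and Rarg kept their d2 directions under each scaling. Neurog3 had at most 33 counts and Sox3 at most 56 in any library, which limits both.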
